A study of Mus musculus with 3 samples.

Results

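Colony-stimulating factors (CSFs) are the cytokines that make, feed and activate macrophages and granulocytes. The 9 genes described here encode 6 receptor proteins of this system (Csf1r, Csf2ra, Csf2rb, Csf2rb2, Csf3r and Flt3) and 3 of its ligands (Csf1, Csf2 and Csf3). They were chosen by gene symbol, by a rule that used no measured values, from the 55536 annotated genes of the deposited tables. Earlier results of these data were known when they were chosen. All 9 were present in every library.

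The RNA came from primary macrophages grown from the bone marrow of C57BL/6J mice and exposed to 100 ng/ml of Lipid A for 25 min. Lipid A, the membrane anchor of lipopolysaccharide, is sensed by the receptor TLR4. Chromatin was isolated, and its total RNA, in which nascent transcripts are enriched, was sequenced after ribosomal RNA had been depleted. All 3 libraries belong to 1 group with no untreated control, so nothing below is a response to Lipid A. Replicates 1, 2 and 3 were made from 1000, 250 and 500 ng of RNA and held 13525994, 19230763 and 19207049 expected counts. The labels number them as biological replicates 1, 2 and 3, each as technical replicate 1. All carry the same donor label, and the labels do not say whether separate mice or cultures were used. Spreads and p-values therefore measure only the variation between these libraries, and how much of it is technical cannot be told. Age and sex were not collected, and the sources used here name no growth factor for the macrophages.

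CSF1, also called M-CSF, signals through CSF1R, a receptor tyrosine kinase that most tissue macrophages need to survive and that is a defining gene of the lineage. CSF2 (GM-CSF) binds CSF2RA, the alpha chain, which pairs with the common beta chain CSF2RB shared with the IL-3 and IL-5 receptors. Mice carry a second beta chain gene, Csf2rb2, whose product serves IL-3. CSF3 (G-CSF) signals through CSF3R, best known from neutrophils, and FLT3 is a relative of CSF1R known from early progenitors and dendritic cells.

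The beta chain genes are near copies, and their sequences are shown first because counts are divided between them. On mm10, Csf2rb2 (ENSMUSG00000071714.7, chr15:78282507-78305721, minus strand) and Csf2rb (ENSMUSG00000071713.6, chr15:78325752-78353847, plus strand) lie back to back with 20.0 kb between them. In the coding sequences of Csf2rb-201 and Csf2rb2-201, 2503 of 2640 aligned columns were identical (94.8%), with a longest identical run of 242 bases. The 120-base window with the lowest identity crosses from exon 4 into exon 5 of 14. It covers coding positions 309 to 428 of Csf2rb (chr15:78338898-78340471, plus strand, intron 4 included in the span) and 312 to 431 of Csf2rb2 (chr15:78292838-78294433, minus strand). The 22 differing bases are in capitals, 5′ to 3′:

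Csf2rb: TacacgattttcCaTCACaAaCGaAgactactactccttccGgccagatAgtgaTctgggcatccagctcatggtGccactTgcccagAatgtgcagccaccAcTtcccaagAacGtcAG

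Csf2rb2: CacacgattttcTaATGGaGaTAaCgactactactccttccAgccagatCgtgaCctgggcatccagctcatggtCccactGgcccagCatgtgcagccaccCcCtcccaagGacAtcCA

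At the other extreme stands a window of coding positions 2083 to 2202 in exon 14, the last, where all 120 bases are the same in both genes. In Csf2rb it is chr15:78348577-78348696 on the plus strand and in Csf2rb2 chr15:78284752-78284871 on the minus strand. A read that lies wholly inside it cannot tell the genes apart. The capitals mark the stretches that are also annotated as the arms of a microRNA, miR-7676, which has 1 gene inside each receptor gene (Mir7676-2 in Csf2rb and Mir7676-1 in Csf2rb2):

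Csf2rb and Csf2rb2: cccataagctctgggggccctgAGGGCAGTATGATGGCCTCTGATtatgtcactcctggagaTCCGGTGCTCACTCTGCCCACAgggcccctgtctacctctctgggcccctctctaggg

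The mature arms from RefSeq (GRCm38.p6) are the same for both copies, with the seed, bases 2 to 8, in capitals:

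miR-7676-5p: aGGGCAGUaugauggccucugau

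miR-7676-3p: uCCGGUGCucacucugcccaca

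Neither microRNA gene had a count in any library. At 62 bases they are shorter than the 250 to 400 size range given for the libraries, so these tables do not measure the microRNA itself.

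Of all 31-base stretches in the annotated transcripts of Csf2rb2, 28.6% also occurred in Csf2rb, and 18.8% of those of Csf2rb occurred in Csf2rb2. Other members shared stretches with other genes. For Csf3r, 19.9% were shared with the pseudogene AC105061.2, which had 0, 3 and 4 counts in replicates 1, 2 and 3. For Csf1r, 14.6% were shared with Hmgxb3, a gene on the opposite strand that overlaps its end by 873 bases and stood at 53.4 ± 5.97 TPM (SD, n = 3). For Csf2, 8.70% were shared with the antisense gene Gm12223, which had no counts. Csf1 and Csf3 shared none. Since the strand setting of the counting was not stated, reads of the Csf1r and Hmgxb3 overlap cannot be assigned with certainty.

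Promoter bases are printed for 3 members whose RefSeq start equals the start of the GENCODE gene. They are an abundant receptor gene (Csf2rb2), the abundant ligand gene (Csf1) and the nearly silent Flt3. For Csf1r, Csf2rb and Csf3 no start was compared and no promoter was searched. Each printed stretch holds the 250 bases before the start, on the gene's strand, from RefSeq on GRCm38.p6. Capitals mark any match to 5 motifs searched on both strands. These were the PU.1 core GAGGAA, AP-1 TGANTCA, C/EBP TTGCNNAA, TATAAA and the NF-kB consensus. PU.1 is the master transcription factor of myeloid cells and NF-kB the factor best known downstream of TLR4. Csf2rb2 is at chr15:78305722-78305971, Csf1 at chr3:107760470-107760719 and Flt3 at chr5:147400490-147400739, all on the minus strand:

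Csf2rb2: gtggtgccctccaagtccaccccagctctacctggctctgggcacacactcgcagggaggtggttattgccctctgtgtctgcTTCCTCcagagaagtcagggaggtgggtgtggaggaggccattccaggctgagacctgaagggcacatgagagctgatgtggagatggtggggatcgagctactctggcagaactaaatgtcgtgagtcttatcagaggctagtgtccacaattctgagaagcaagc

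Csf1: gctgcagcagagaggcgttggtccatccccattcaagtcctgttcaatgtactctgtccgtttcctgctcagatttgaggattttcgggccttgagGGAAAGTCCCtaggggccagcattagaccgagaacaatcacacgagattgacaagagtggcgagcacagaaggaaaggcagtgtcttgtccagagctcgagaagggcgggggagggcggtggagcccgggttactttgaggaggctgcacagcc

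Flt3: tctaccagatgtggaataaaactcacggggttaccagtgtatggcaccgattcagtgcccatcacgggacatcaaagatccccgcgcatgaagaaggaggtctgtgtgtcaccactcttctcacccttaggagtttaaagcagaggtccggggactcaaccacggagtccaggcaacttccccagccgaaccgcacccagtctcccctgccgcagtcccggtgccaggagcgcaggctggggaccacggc

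Csf2rb2 has a PU.1 core in reverse (TTCCTC), 167 bases before the start, and Csf1 an NF-kB match (GGAAAGTCCC) 154 bases before it. The Flt3 window holds none of the 5. Over 32851 RefSeq promoters of the same length, 23.3% hold a PU.1 core and 7.25% an NF-kB match, so neither match is particular to these genes. Promoters of 3 other members, Csf2ra, Csf3r and Csf2, were searched from their RefSeq starts, which differ from the GENCODE gene starts. Csf2ra held 2 PU.1 cores, Csf3r 1 PU.1 core and 1 NF-kB match, and Csf2 only 1 C/EBP match (TTGCCCAA), which 9.56% of promoters hold. A match of letters is a description and not a bound site.

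The CSF genes fell into a high and a near-silent set. Csf1r, Csf2rb, Csf2ra, Csf2rb2, Csf3r and Csf1 had mean levels from 77.7 to 535 TPM, while Csf3, Csf2 and Flt3 stood below 0.5 TPM. TPM here is the expected count divided by effective gene length and scaled to the same total in each library over genes of at least 300 nt, so it compares genes per length. In the list 6 of 9 genes reached 1 TPM (66.7%), against 32.9% of 46615 genes and 50.5% of 21898 protein coding genes. Here and below, a gene is said to reach 1 TPM if its mean over the libraries did. In bulk RNA, fewer expressing cells and less RNA per cell cannot be told apart.

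**Figure D1:**
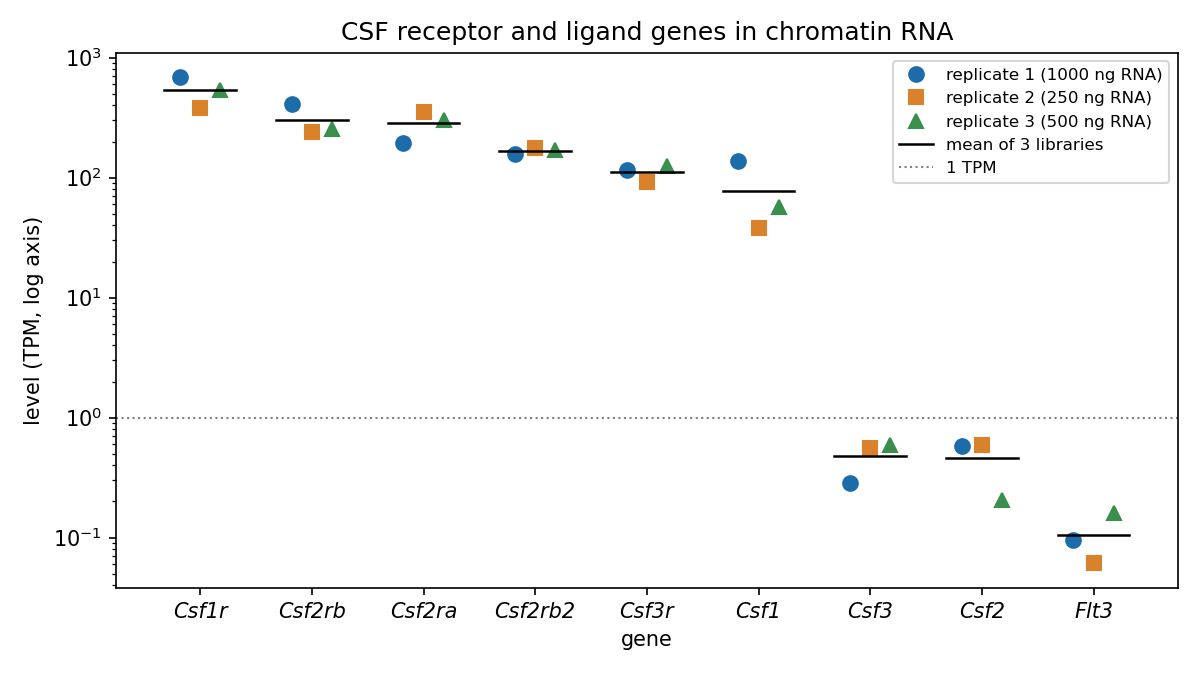
Level of each CSF receptor and ligand gene (TPM, log axis) in each of the 3 libraries, with the mean as a line and 1 TPM dotted. The 6 genes on the left lie between 38.4 and 686 TPM in every library and the 3 on the right between 0.0611 and 0.588 TPM.

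The libraries themselves were not equally alike. The median absolute log2 ratio of counts over 14928 genes was 0.452 between replicates 1 and 2 and 0.397 between replicates 1 and 3, but 0.212 between replicates 2 and 3. Replicate 1 also had the most RNA and the fewest counts, and the levels, ratios and called slopes that moved most without it are also given for the other libraries. The marker genes present were those of the labelled cell type. All 10 macrophage markers listed reached 1 TPM, with sums of 5725, 4659 and 4830 TPM in replicates 1, 2 and 3. Of 10 markers of neutrophils, the main other cell type that uses CSF3R, only Ngp reached a mean of 1 TPM (marker sums 3.64, 4.13 and 2.26 TPM). Ngp stood at 1.87 ± 0.881 TPM on 17, 13 and 11 counts. The other neutrophil markers had at most 6 counts a library (Ltf in replicate 2), and Elane and Ly6g had no counts. Of 8 dendritic cell markers, 2 reached 1 TPM (Batf3 and Zbtb46; sums 10.2, 11.3 and 8.65 TPM), and Cd209a had none. No T, NK or B cell marker reached 1 TPM. Of the mast cell and basophil markers Kit alone did, and of the stromal and endothelial markers Kdr alone.

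Csf1r (ENSMUSG00000024621.16, chromosome 18, 61100598 to 61132149, plus strand) was the highest CSF gene in each library, at 686, 382 and 536 TPM in replicates 1, 2 and 3. Its mean of 535 ± 152 TPM (SD, n = 3) was rank 123 among protein coding genes, in percentile 99.4. Replicate 1 was highest and replicate 2 lowest, and without replicate 1 the mean was 459 TPM. It rested on 12186, 12934 and 15099 expected counts. The protein coding genes nearest to it in level over the 3 libraries, by root mean square difference of log2(TPM + 1) among 21889 genes, were the calcium pump gene Atp2b1 (0.0733 log2 units), the kinase gene Plk2 (0.0801) and the splicing factor gene Srsf11 (0.0985). Atp2b1 stood at 647, 397 and 508 TPM in the same libraries. This is a likeness of level only.

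The 3 genes for GM-CSF and IL-3 receptor chains followed. Csf2rb stood at 410, 239 and 253 TPM, on average 301 ± 95.1 TPM (SD, n = 3), or 246 TPM without replicate 1. Csf2ra (ENSMUSG00000059326.7, chr19:61223957-61228429, minus strand) stood at 195, 350 and 304 TPM, a mean of 283 ± 79.7 TPM (327 without replicate 1). Replicate 1 was the highest library for the common beta chain and the lowest for the alpha chain, so in these RSEM-type TPM the order of the chains changed between libraries. In the kallisto-type table Csf2rb, at 600, 489 and 494 TPM, was above Csf2ra, at 147, 293 and 252 TPM, in each library. Csf2rb2 was at 157, 177 and 171 TPM, a mean of 168 ± 10.3 TPM, the smallest relative spread of the 9 genes in RSEM-type TPM (coefficient of variation 6.12%) but not in normalised counts, given with the RNA amounts. These means lay in percentiles 98.7, 98.5 and 97.0 of protein coding genes, in the order Csf2rb, Csf2ra, Csf2rb2.

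How the beta chains compared depended on the scale. Per length, Csf2rb was above Csf2rb2 in 3 of 3 libraries, by 1.39, 0.44 and 0.57 log2 units in replicates 1, 2 and 3 (mean 0.80 ± 0.52, SD, n = 3; 0.50 without replicate 1). In expected counts, not divided by length, the genes were equal on average, with log2 ratios of 0.35, -0.33 and -0.00 (mean 0.00 ± 0.34). In the kallisto-type table, a second quantification of the same libraries by transcript, the TPM ratio was 2.30, 1.71 and 1.80 log2 units (mean 1.94 ± 0.32). An exact sign-flip permutation test over 3 libraries cannot go below p = 0.25, so none was run. Csf2rb had 5039, 5762 and 6598 counts and Csf2rb2 3961, 7254 and 6613.

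The effective length that turns these counts into TPM differed between libraries for Csf2rb, at 2118, 2612 and 2990 nt, but hardly for Csf2rb2, at 4359, 4455 and 4439 nt. In replicate 1 the short transcript Csf2rb-203 (328 nt) took 1.16% of the counts of Csf2rb but 18.9% of its TPM, and in replicates 2 and 3 it had no counts. The high TPM of Csf2rb in replicate 1 therefore includes a part that rests on 58.5 expected counts. The deposited posterior SD of the gene count was 8.54, 9.24 and 9.88 counts for both genes in replicates 1, 2 and 3, at most 0.216% of the count. It covers the division of reads under the authors' model only.

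Against the alpha chain, the place of Csf2rb depended on the table and the scale. In the RSEM-type TPM it differed by 1.08, -0.55 and -0.26 log2 units (mean 0.09 ± 0.87, SD, n = 3), within the spread, and by -0.41 without replicate 1. In the kallisto-type TPM it was above Csf2ra in 3 of 3 libraries, by 2.03, 0.74 and 0.97 (mean 1.25 ± 0.69). In RSEM-type counts, not divided by length, the ratio was 2.12, 0.97 and 1.38. Csf2rb2 was below Csf2ra per length in 3 of 3 libraries, by a log2 difference of -0.31, -0.99 and -0.83 (mean -0.71 ± 0.35, SD, n = 3; -0.69 ± 0.37 in the kallisto-type TPM). In RSEM-type counts it was above Csf2ra in 3 of 3, by 1.77, 1.31 and 1.39. Short processed transcripts took 12.0% of the counts of Csf2ra but 46.7% of its TPM, so the direction rests on the division by length.

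Csf3r (ENSMUSG00000028859.14, chr4:126024550-126044440, plus strand), the G-CSF receptor gene, stood at 116, 92.6 and 126 TPM, a mean of 111 ± 16.9 TPM (SD, n = 3; percentile 94.9). The summed level of the 10 neutrophil markers listed did not pass 4.13 TPM in any library. Which cells the Csf3r RNA came from was not tested. The counts of Csf3r were 1599, 2193 and 2475, so counting error was small beside the spread between libraries.

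Flt3 (ENSMUSG00000042817.15, chr5:147330741-147400489, minus strand) was the lowest member. It had 2, 2 and 5 expected counts, which is 0.0960, 0.0611 and 0.159 TPM. Its 9 counts over all libraries have an exact 95% Poisson interval of 4.12 to 17.1, for counting error only. The kallisto-type table gave more, 85.2, 64.5 and 79.8 counts and 1.39 ± 0.533 TPM, which places Flt3 above 1 TPM. Of those counts, 98.8%, 98.4% and 96.1% lay on Flt3-202, a processed transcript of which 2519 of 3951 bases (63.8%) come from intron 9 of the coding transcript Flt3-201. On Flt3-201 both tables placed few counts.

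Among the ligands Csf1 (ENSMUSG00000014599.10, chr3:107741048-107760469, minus strand) stood apart. Its level was 138, 38.4 and 56.5 TPM, a mean of 77.7 ± 53.2 TPM (SD, n = 3), in percentile 92.1 of protein coding genes. Replicate 1 was the highest library, and without it the mean was 47.4 TPM. The receptor gene Csf1r was above its ligand gene in each library, by 4.96-fold, 9.96-fold and 9.49-fold per length (log2 ratio 2.96 ± 0.56; 3.28 without replicate 1).

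Csf2 and Csf3, the ligand genes for GM-CSF and G-CSF, were at the floor of detection. Csf2 (ENSMUSG00000018916.5, chr11:54247271-54249667, minus strand) had 2, 3 and 1 counts, or 0.580, 0.588 and 0.205 TPM. Its 6 counts in all have an exact 95% Poisson interval of 2.20 to 13.1. Csf3 (ENSMUSG00000038067.2, chr11:98701263-98703629, plus strand) had 2, 6 and 6 counts, or 0.286, 0.558 and 0.586 TPM, and its 14 counts have an interval of 7.65 to 23.5. A count of 0 would still allow 3 counts, which is 0.222 CPM in replicate 1 and 0.156 CPM in each of the others, so no order between these genes can be read at this depth. Both are known as genes that activated macrophages can switch on, but with no untreated cells or later time in the series these values say nothing of induction.

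In the order of mean RSEM-type levels, several neighbours overlapped. The library ranges of Csf1r and Csf2rb overlapped, although Csf1r was higher within each of the 3 libraries. Csf2rb and Csf2ra overlapped, and Csf2rb was higher in 1 of 3 libraries, whereas in the kallisto-type table they did not overlap and Csf2rb was higher in 3 of 3. Csf3r and Csf1 overlapped, with Csf1 above Csf3r in replicate 1 and below it in the others. Csf3 and Csf2 overlapped too. The ranges of Csf2ra and Csf2rb2, of Csf2rb2 and Csf3r, of Csf1 and Csf3, and of Csf2 and Flt3 did not overlap, but the last pair rests on at most 5 counts a library. In the kallisto-type table Csf2ra (147 to 293 TPM) and Csf2rb2 (122 to 150 TPM) did overlap, and Flt3 was above Csf2 and Csf3 on average.

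The only recorded difference between the libraries was the amount of RNA, and 2 members moved with it in opposite directions. Csf1 was at 130, 54.1 and 72.2 normalised CPM (read counts relative to TMM-adjusted library size) in replicates 1, 2 and 3, so it was highest with 1000 ng, lowest with 250 ng and between them with 500 ng. Its slope was 0.63 log2 units per doubling of RNA (SE 0.13; edgeR quasi-likelihood test, adjusted p = 0.00989). Csf2ra ran the other way at 78.0, 165 and 137 CPM, highest with 250 ng and lowest with 1000 ng. Its slope was -0.54 (SE 0.14; edgeR, adjusted p = 0.0339).

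Of the 6 members tested, 2 were called at an adjusted p under 0.05, where 4.38% of 15077 genes tested were called, 2.98% higher with more RNA and 1.41% lower. With kallisto-type counts 2 members were called beside 2.00% of 24300 genes. With 1 library for each amount, any other difference between libraries and the amount itself cannot be told apart. Only 1 residual degree of freedom stands behind the fit. Much of both slopes lay in replicate 1. Without it the slope over the other libraries was 0.42 for Csf1 and -0.26 for Csf2ra, and without replicate 2 it was 0.85 and -0.82, values with no test.

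The other tested receptors gave no call. Csf2rb2, at 266, 408 and 359 CPM, leaned the same way as Csf2ra, with a slope of -0.31 (SE 0.13; edgeR, adjusted p = 0.175). Csf1r was at 820, 727 and 820 CPM with a slope of 0.09 (SE 0.13; edgeR, adjusted p = 0.741). Csf2rb was at 339, 324 and 358 CPM with a slope of 0.03 (SE 0.13), and Csf3r had a slope of -0.10 (SE 0.14). Flt3, Csf2 and Csf3 had too few counts for the test.

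**Figure D2:**
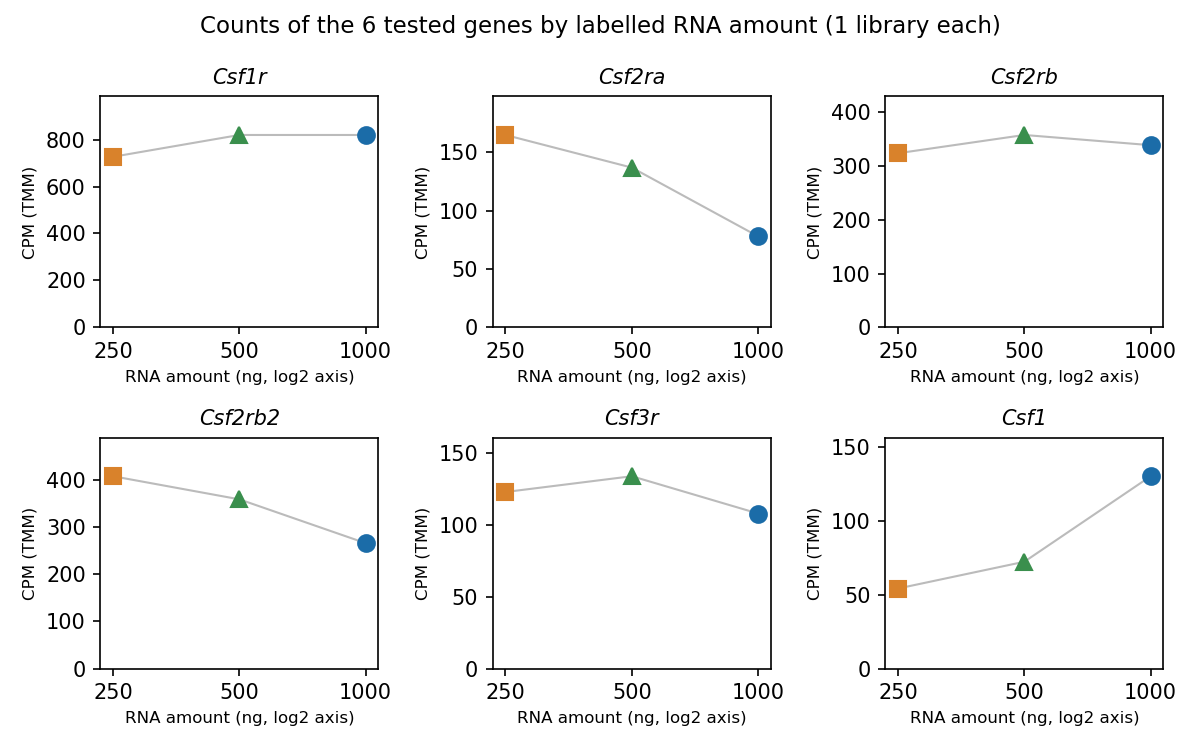
Normalised CPM (linear axis from 0) of the 6 tested CSF genes against the labelled RNA amount in ng (log2 axis), 1 library at each amount, joined by a line to guide the eye. Csf1 rises from 54.1 to 130 CPM and Csf2ra drops from 165 to 78.0 CPM between 250 and 1000 ng, while Csf1r stays between 727 and 820 CPM.

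Chromatin RNA holds unspliced transcripts, and the annotation has transcripts with a retained intron for 4 members. A retained-intron share is the percent of a gene's expected counts placed on such transcripts. By counts Csf2ra had the highest share of the 4, 66.7%, 69.9% and 70.3% in replicates 1, 2 and 3 (mean 69.0% ± 1.97, SD, n = 3). The 95% Wilson intervals, for counting error only, began at 64.0%, 68.2% and 68.5%. The protein coding transcripts of this alpha chain gene took 20.7%, 19.2% and 17.3%. Among 6732 genes with such a transcript and at least 50 counts, the median share was 26.3%, and Csf2ra was in percentile 88.2. Measured by TPM instead of counts its share was 41.9% ± 2.08, below the 47.9% ± 3.61 of Csf2rb, so the order of these genes turned over.

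Most of the share of Csf2ra came from 1 transcript. Csf2ra-202 held 60.7% ± 2.01 of the gene's counts (SD, n = 3; 56.3% ± 3.41 in the kallisto-type table). It runs through introns 6 to 8 of the main coding transcript Csf2ra-201, 404 bases of intron, and on for 445 bases past its end. Of the 2277 bases of Csf2ra-202, 433 (19.0%) lie in introns, so counts placed on it need not be intron reads. Csf2ra-201 itself held 18.7%. A read in an exon that both share is placed by the model, and a pre-mRNA in which other introns remain has no transcript of its own in the annotation.

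By counts the other 3 genes had smaller shares. Csf1 was near the median of all genes, at 27.0%, 28.2% and 25.2% (mean 26.8% ± 1.53), on Csf1-206. Of the 2160 bases of Csf1-206, 421 (19.5%) lie in intron 6. Csf2rb was at 24.2%, 20.0% and 22.2% (mean 22.1% ± 2.09), nearly all on Csf2rb-205, of which 1911 of 2470 bases (77.4%) lie in intron 3. Csf1r was lowest at 15.8%, 10.5% and 10.5% (mean 12.2% ± 3.05, percentile 29.3), on Csf1r-204. Of the 2035 bases of Csf1r-204, 344 (16.9%) lie in intron 11. Replicate 1 stood above the others for Csf1r. By TPM the shares were 36.3% ± 3.51 for Csf1 and 22.3% ± 3.83 for Csf1r, which was lowest on that scale too.

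**Figure D3:**
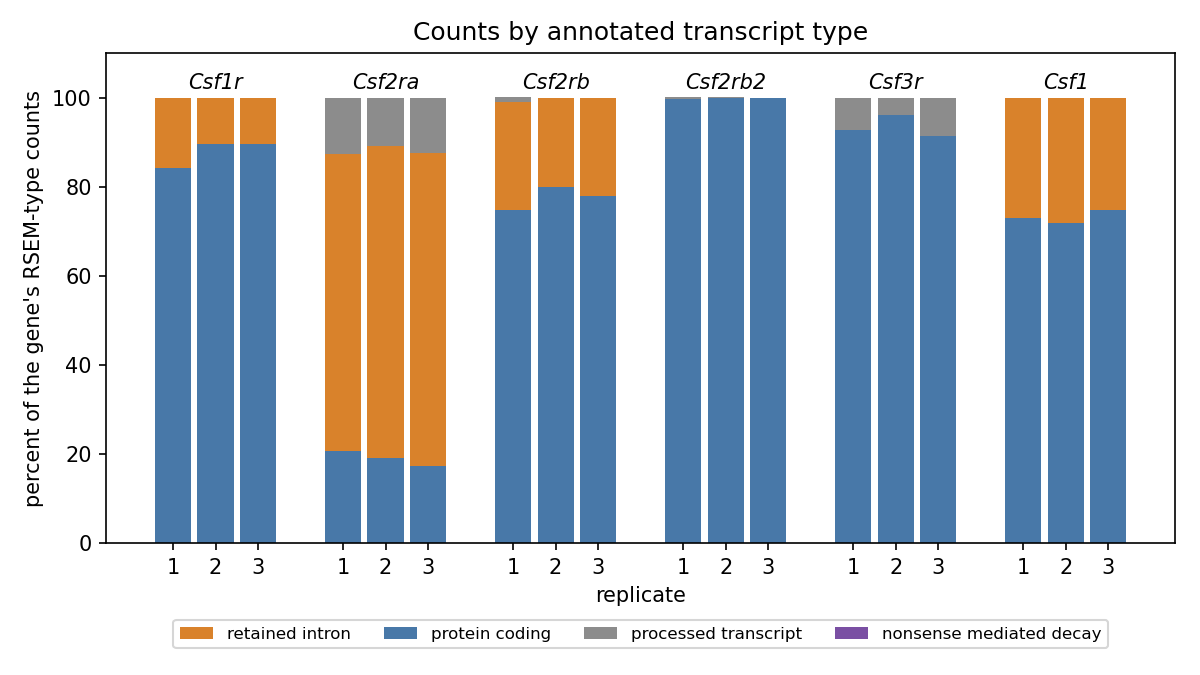
Percent of each gene's expected counts on each annotated transcript type, stacked to 100, for the 6 abundant CSF genes in replicates 1 to 3. Retained-intron transcripts fill 66.7% to 70.3% of Csf2ra and 10.5% to 15.8% of Csf1r, and Csf2rb2 and Csf3r have no such annotated transcript.

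Csf2rb2, Csf3r, Flt3, Csf2 and Csf3 have no annotated retained-intron transcript, so a share of 0 there is a property of the annotation. In the RSEM-type table Csf2rb2 placed 98.7% ± 0.289 of its counts on Csf2rb2-201 and Csf3r 83.7% ± 1.24 on Csf3r-201 (SD, n = 3). In the kallisto-type table these shares were 85.8% ± 1.37 and 55.1% ± 8.69. There, in replicate 1, Csf3r-201 (46.1%) was below Csf3r-202 (47.7%).

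The deposited quantifications divided the reads of several members between transcripts in different ways. For Csf1r the RSEM-type table placed 60.7%, 65.0% and 67.8% on Csf1r-202 in replicates 1, 2 and 3, while the kallisto-type table placed 17.5%, 11.5% and 13.9% there. Csf1r-202 ends 1015 bases beyond Csf1r-201, in the stretch that overlaps Hmgxb3. Csf1r-201 showed the converse, with means of 22.7% and 67.7%. The tables also differed in total, with 12186, 12934 and 15099 counts for Csf1r in the first and 20638, 24501 and 28396 in the other. No isoform of Csf1r can be called the main one from these files.

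Other genes showed smaller or similar gaps. Csf2rb-204, which uses a downstream last exon, held 0.129% of the counts of Csf2rb in the RSEM-type table and 16.3% ± 1.85 in the kallisto-type table. For Csf3r the coding transcript with the upstream start, Csf3r-202, held 9.62% ± 1.13 and 38.9% ± 8.71. For Csf1 the full-length Csf1-201 held 55.2% ± 4.39 and 25.1% ± 14.5, with 9.30%, 37.7% and 28.3% by library in the kallisto-type table. Retained-intron shares moved less, to 70.8% for Csf2ra, 25.4% for Csf1, 28.0% for Csf2rb and 15.9% for Csf1r.

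**Figure D4:**
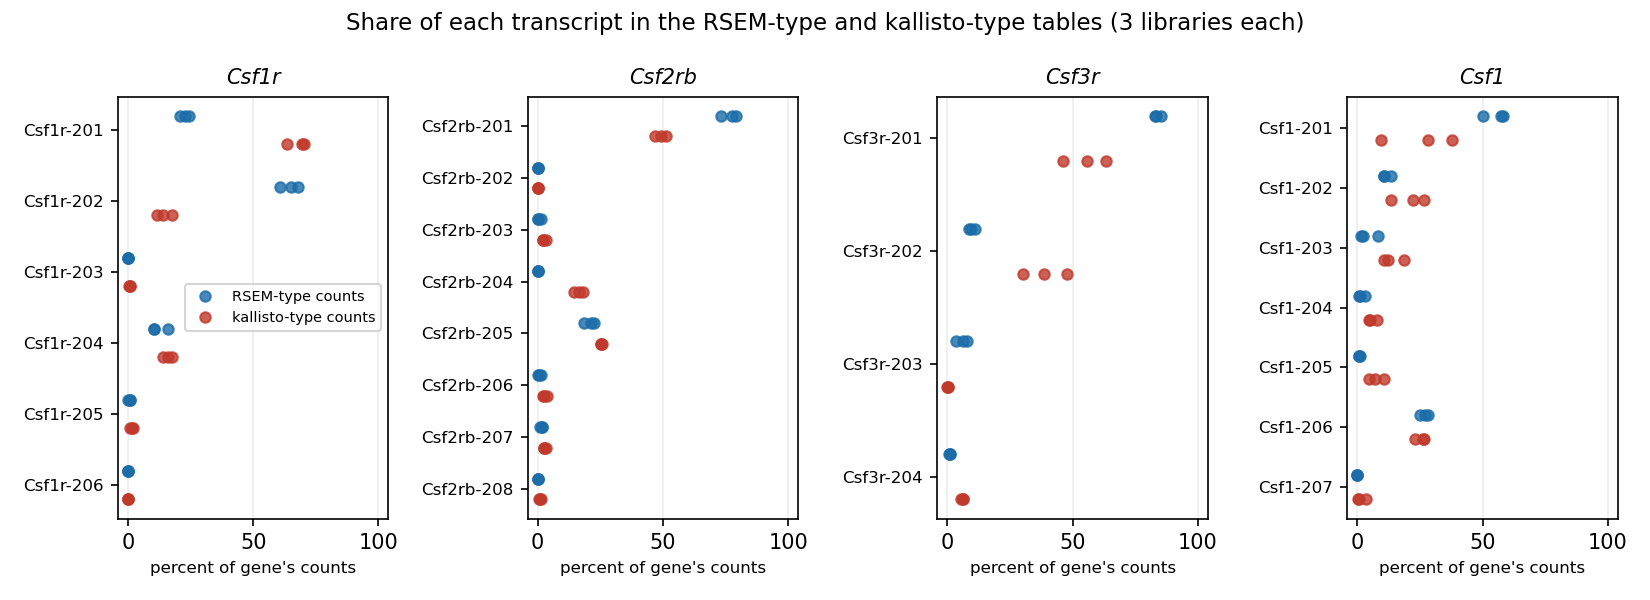
Percent of a gene's counts on each annotated transcript of Csf1r, Csf2rb, Csf3r and Csf1, with 1 point a library in the RSEM-type table (blue) and the kallisto-type table (red). The tables place Csf1r-201 and Csf1r-202 in opposite order, at means of 22.7% and 64.5% against 67.7% and 14.3%.

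The rest of the pathway was largely present in the chromatin RNA. Of 52 other genes of CSF signalling, 46 reached 1 TPM, with a median of 42.9 TPM. Among all 21898 protein coding genes 50.5% did, with a median of 1.09 TPM, which is the background for the counts by role below too. The list is a chosen set of known genes and not a random one. With RNA amount 48 were tested, of which 2 were called higher and 1 lower (edgeR, adjusted p under 0.05), beside the background of 4.38% for all genes.

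Among other ligands and receptors, 4 of 8 reached 1 TPM. Il3ra, the IL-3 receptor alpha chain that pairs with the beta chains, was highest at 25.2 ± 7.93 TPM (SD, n = 3). Flt3l, the ligand of the nearly silent Flt3, was at 13.1 ± 2.07 TPM and Kitl, the stem cell factor gene, at 6.48 ± 3.75 TPM. Il3 and Il5ra had no counts in any library. Il34, the other ligand of CSF1R, had 3, 1 and 0 counts in replicates 1, 2 and 3. It is named here for its role, after its values were seen.

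All 17 kinases, adaptors and signal transducers reached 1 TPM. The tyrosine kinase gene Syk led at 593 ± 138 TPM (SD, n = 3), a mean above that of every CSF receptor gene. Its range overlapped that of Csf1r, and in replicate 3 Csf1r (536 TPM) was above Syk (515 TPM). The PI3-kinase subunit gene Pik3r1 was at 238 ± 105 TPM and the Src-family kinase gene Lyn at 175 ± 80.3 TPM. Lowest were the Src-family gene Fyn, at 15.3 ± 1.54 TPM, and Jak2, the kinase bound to the common beta chain, at 20.0 ± 5.33 TPM. Genes annotated across Pik3r1 on the same strand, and across Lyn on the other, held counts of their own, so those levels are uncertain.

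Of the 10 brakes on CSF signalling, 9 reached 1 TPM. Inpp5d, which encodes the lipid phosphatase SHIP1, was at 433 ± 26.7 TPM (SD, n = 3), and the ubiquitin ligase genes Cblb and Cbl, the latter known for removing CSF1R from the surface, at 171 ± 35.3 and 130 ± 15.0 TPM. The suppressor gene Socs1 was lowest at 0.556 ± 0.163 TPM and the adaptor gene Dok1 next at 6.75 ± 2.65 TPM. Socs3, known to restrain G-CSF receptor signals, was at 163, 40.9 and 79.0 TPM in replicates 1, 2 and 3 and rose with RNA amount, by 0.81 log2 units per doubling (SE 0.13; edgeR, adjusted p = 0.00181). Without replicate 1 its mean was 59.9 TPM and its slope 0.83.

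All 9 transcription factors known to act on Csf1r and related genes reached 1 TPM. Runx1 was at 310 ± 132 TPM (SD, n = 3), Irf8 at 121 ± 20.7 TPM and Egr2 at 110 ± 62.2 TPM. A gene annotated across Irf8 on the same strand, Gm20388, held 0, 220 and 363 counts, so the level of Irf8 is uncertain. Cebpa, a factor of myeloid progenitors, was lowest at 0.795, 3.21 and 1.87 TPM in replicates 1, 2 and 3 and fell with RNA amount, with a slope of -1.14 (SE 0.29; edgeR, adjusted p = 0.0311). It rested on 11, 68 and 38 counts, and without replicate 1 its slope was -0.87.

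Of 7 known targets of CSF signalling, 6 reached 1 TPM. The survival genes Mcl1, at 688 ± 309 TPM (SD, n = 3), and Bcl2l1, at 84.5 ± 29.3 TPM, and the kinase gene Pim1, at 495 ± 147 TPM, were highest. An antisense gene across Pim1 held 556, 1144 and 1119 counts. The cyclin genes Ccnd2 and Ccnd1 were lowest, at 0.574 ± 0.284 and 4.57 ± 2.07 TPM. Adam17, the protease known to shed CSF1R from the surface, was at 167, 51.9 and 66.5 TPM and rose with RNA amount as Csf1 did, by 0.56 log2 units per doubling (SE 0.13; edgeR, adjusted p = 0.0207). Its slope was 0.21 without replicate 1 and 0.92 without replicate 2, and its mean 59.2 TPM without replicate 1.

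**Figure D5:**
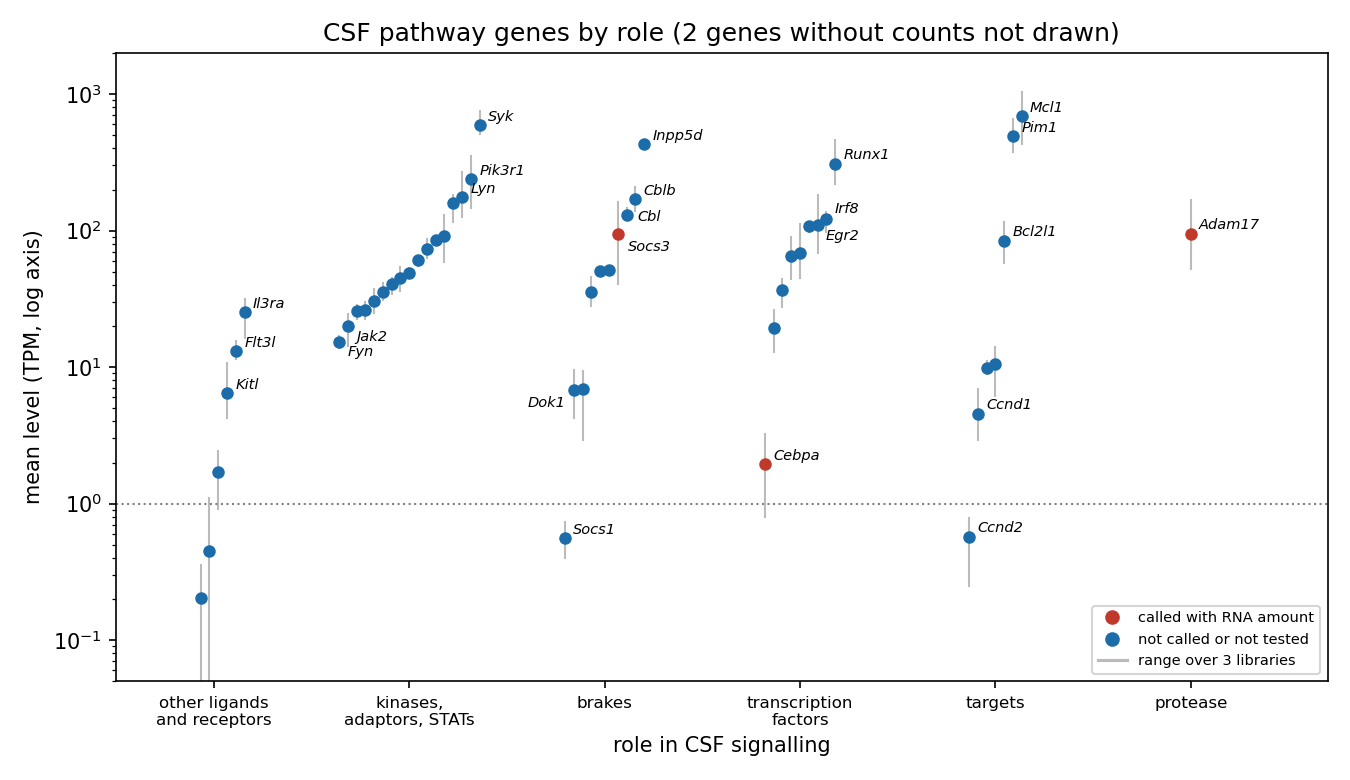
Mean level (TPM, log axis) of 50 of the 52 other CSF pathway genes by role, with the range over 3 libraries as a line and 1 TPM dotted. The 3 genes called with RNA amount, Socs3, Adam17 and Cebpa, are red, and Il3 and Il5ra, which had no counts, are not drawn; lines that reach the lower edge (Il5 and Il34) include a library without counts.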

How the data were processed

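Ribosomal RNA-depleted total RNA of the chromatin fraction was sequenced in 3 libraries of 1 group. For each, the authors deposited gene and transcript tables with expected counts and TPM, in columns named as RSEM names them, and a transcript table with estimated counts and TPM, named as by kallisto, per the file headers. The tables refer to mm10 and annotation M21, per the deposited readme files. The sources used here give no aligner, tool version or strand setting. TPM were recomputed from expected counts over genes of at least 300 nt, since small RNAs enter the scaling of the deposited TPM. Counts were rounded and fitted over all 55536 genes with edgeR 4.0.16 (TMM, filterByExpr, quasi-likelihood test, Benjamini-Hochberg) in R 4.3.3 on log2 RNA amount, after testing on simulated data. GENCODE M21 gave transcript types and structures, RefSeq the promoters and microRNAs, and BLAST 2.17.0 the alignment. DESeq2 1.42.0, RLE factors, no filter, kallisto-type counts, genes of at least 300 nt and leaving out each library were alternatives. The genes and lists were chosen with earlier results of these data known. From each pathway role the 3 highest and 2 lowest genes by mean TPM and every called gene were named. The value of 1 gene that this rule names is not reported here.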

Additional observations from a re-analysis of the deposited data

How the results depend on the processing

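The number of CSF genes at or above 1 TPM was 6, but 7 in the kallisto-type table, where Flt3 passed 1 TPM. The number called with RNA amount was 2 under each alternative fit. Csf1 and Csf2ra stayed called under all 5 other fits, with adjusted p from 0.00135 to 0.0163 and from 0.0119 to 0.0494. The count of all called genes was 661 of 15077, 1181 without the filter on low counts (58.8% of calls higher with more RNA against 67.9%), 364 of 8510 with DESeq2 and 487 of 24300 with kallisto-type counts. Socs3 and Adam17 stayed called under all 5 other fits and Cebpa under 4, with no adjusted p from DESeq2. The log2 ratio of Csf2rb to Csf2rb2 moved from 0.80 to 1.94 in the kallisto-type table and 0.00 in counts without gene length, and from 0.50 to 0.98 when each library was left out. That of Csf2rb to Csf2ra moved from 0.09 to 1.25 and 1.49, and ran from -0.41 to 0.41. The uncalled slope of Csf2rb turned to -0.05 with kallisto-type counts (edgeR, adjusted p = 0.877). The causes were not tested. With the deposited TPM or genes of any length, levels were lower, since small RNAs then enter the scaling, as for Csf1r at 192 TPM. Ratios with counts, leave-one-out values of ratios and of called pathway genes, and the fit on genes of at least 300 nt were chosen after seeing the data. No paired analysis was possible because there is 1 group. Depth limits Csf2 and Csf3, with at most 6 RSEM-type and 17.0 kallisto-type counts a library; the count of Flt3 depended on the table, at most 5 against 85.2.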
